A study of Mus musculus with 6 samples.

Results

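The accessible chromatin of 9 genes that link glucose to insulin secretion in pancreatic beta cells was examined in 3 mouse cell lines. The genes were *Slc2a2*, *G6pc2*, *Abcc8*, *Kcnj11*, *Cacna1c*, *Cacna1d*, *Slc30a8*, *Glp1r* and *Ucn3*, 9 of the 22367 protein-coding genes of the annotation, and the rule used their names and no measured value. A member's window was its gene body with 10 kb on either side. Every ATAC-seq peak that touched a window was taken, and was placed in 1 of 3 classes: within 1 kb of a start site of the gene itself, within 1 kb of a start site of another protein-coding gene, or elsewhere.

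ATAC-seq uses the Tn5 transposase, which cuts and tags DNA where chromatin is open, so that fragments pile up at accessible sites. The study profiled Beta-TC3 cells, an insulinoma (beta-cell tumour) line that it calls Pax6-HIGH; MV+ cells, a lens epithelial line called Pax6-ON; and RAG cells, a renal adenocarcinoma line called Pax6-OFF. All 3 lines were untreated and grew in the same serum-containing medium, and the study states that it did not authenticate them. Each line gave 2 libraries of 50000 nuclei, which the authors pooled in 1 peak call, so no value below has a replicate error and no difference between lines could be tested. The nuclei of MV+ cells were released with 0.2% NP40 and those of the other lines with 0.1%, which cannot be told apart from the line.

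In beta cells, glucose enters through the transporter that *Slc2a2* encodes, and its metabolism raises the ratio of ATP to ADP. ATP then closes a potassium channel built from *Kcnj11* pore subunits and *Abcc8* regulatory subunits, the membrane depolarizes, and calcium flows in through L-type channels whose pores are encoded by *Cacna1c* and *Cacna1d*. Calcium releases insulin from granules that *Slc30a8* loads with zinc, while the glucose phosphatase of *G6pc2*, the incretin receptor of *Glp1r* and the peptide of *Ucn3* tune the response.

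The calls differed in size before any gene was considered. Beta-TC3 cells had 28024 peaks from 100254099 fragments, MV+ cells 9821 peaks from 130955836 fragments and RAG cells 14022 peaks from 102223606 fragments. The strength of a peak is given as its pileup, the number of fragments at its summit, with a 95% Poisson interval that covers counting error only. The interval treats fragments as independent, and since the calls kept all duplicates it can be too narrow. No peak was called under 25, 30 and 25 fragments in Beta-TC3, MV+ and RAG cells, so a site below that height counts here as not called and not as closed. Pileups are not scaled for depth, and lines were therefore compared by presence, with each peak placed by its rank among all peaks of its own line, where 100% would be the highest. Such a rank depends on how many weak peaks a line's list holds, so ranks in lists of different length place a peak within its own line and do not compare accessibility between lines. Of 10 insulinoma markers, 6 had a start-site peak in Beta-TC3, 3 in MV+ and 1 in RAG cells, where 46.4%, 21.4% and 36.1% of all protein-coding genes had one. Of the 6, *Neurod1*, *Nkx2-2* and *Chga* were called in Beta-TC3 cells alone, *Nkx6-1* and *Isl1* also in MV+ cells, and *Mafa* in all 3 lines. The insulin genes *Ins1* and *Ins2* had no peak in their windows in any line, and *Iapp* and *Pdx1* had none at a start site. Of 10 lens markers 1 had a start-site peak in Beta-TC3, 1 in MV+ and 2 in RAG cells, and in MV+ cells *Cryaa* and *Foxe3* had none. Of 10 renal markers 1, 0 and 2 had one in the same order. The 1 in Beta-TC3 cells was *Aqp1*, and in RAG cells *Aqp1* and *Pax8* had none. Few markers of the lens and renal lines thus had a start-site peak, and the lines are called here by their names alone.

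The sequences at the member peaks show what was accessible. For each member with a peak of its own in Beta-TC3 cells, the summit of the strongest such peak is shown with 100 bases on either side, read 5′ to 3′ on the + strand of mm9. Capitals mark exact matches, on either strand, to the short binding motifs of islet and general factors that were searched. The first, from *G6pc2*, is the only one at a start site of its gene in the GENCODE annotation. It lies at chr2:69057790-69057990, and its capitals are the MAF motif (TGCTGAC, read on the other strand as GTCAGCA) and the NeuroD E-box (CAGATGG).
G6pc2: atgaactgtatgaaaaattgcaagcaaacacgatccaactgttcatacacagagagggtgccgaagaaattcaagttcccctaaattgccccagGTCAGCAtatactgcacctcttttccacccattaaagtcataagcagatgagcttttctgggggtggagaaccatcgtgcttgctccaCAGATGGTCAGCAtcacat
In this stretch the E-box and the second MAF motif share 1 base. The E-box ends 28 bases and that MAF motif 22 bases before a RefSeq start of the gene at position 69058006. The other MAF motif ends 116 bases before that start, on the summit. Another RefSeq start, at position 69049130, was 4707 bases from the nearest Beta-TC3 peak.

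The next pair come from the channel genes. The *Cacna1c* sequence, at chr6:119059013-119059213, is the strongest of the 11 Beta-TC3 peaks of this gene outside the start site of a neighbour, and its capitals are a NeuroD E-box. The *Abcc8* sequence, at chr7:53378387-53378587, is the strongest peak of any member that was not at another gene's start site, and held no match.
Cacna1c: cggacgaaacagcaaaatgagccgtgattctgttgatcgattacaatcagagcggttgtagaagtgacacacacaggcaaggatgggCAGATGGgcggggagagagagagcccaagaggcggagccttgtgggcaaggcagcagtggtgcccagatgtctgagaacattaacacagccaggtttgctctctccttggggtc
Abcc8: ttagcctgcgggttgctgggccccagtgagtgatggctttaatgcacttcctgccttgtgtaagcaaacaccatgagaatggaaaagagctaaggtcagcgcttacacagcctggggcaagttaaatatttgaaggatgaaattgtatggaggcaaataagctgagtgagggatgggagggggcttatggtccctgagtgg

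The weaker members follow: *Slc30a8* at chr15:52173193-52173393, downstream of the gene, with a MAF motif in capitals; *Ucn3* at chr13:3941516-3941716, in its intron; and *Cacna1d* at chr14:31165383-31165583, in an intron near an internal start site.
Slc30a8: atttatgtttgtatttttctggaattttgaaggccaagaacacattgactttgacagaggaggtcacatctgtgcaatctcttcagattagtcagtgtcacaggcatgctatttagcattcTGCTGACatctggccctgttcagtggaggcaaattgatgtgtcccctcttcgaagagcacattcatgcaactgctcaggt
Ucn3: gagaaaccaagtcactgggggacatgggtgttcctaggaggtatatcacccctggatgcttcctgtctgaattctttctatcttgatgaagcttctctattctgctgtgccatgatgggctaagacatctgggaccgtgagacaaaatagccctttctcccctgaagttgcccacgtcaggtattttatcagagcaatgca
Cacna1d: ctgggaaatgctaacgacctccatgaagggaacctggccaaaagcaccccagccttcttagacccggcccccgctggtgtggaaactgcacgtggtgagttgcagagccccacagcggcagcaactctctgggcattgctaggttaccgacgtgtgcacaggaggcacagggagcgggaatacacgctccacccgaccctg
The motif matches are descriptions of these letters and say nothing of which factors were bound.

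Across the 9 windows, Beta-TC3 cells had 22 peaks, MV+ cells 2 and RAG cells 8. The 22 Beta-TC3 peaks lay at 6 of the 9 members, and 61.6% of all protein-coding genes had a window peak in that line. The 2 MV+ peaks lay at 2 members (30.6% of all genes), and the 8 RAG peaks at 4 members (48.9% of all genes). The share of members with a peak was therefore near that of all genes in Beta-TC3 and RAG cells. *Slc2a2* and *Kcnj11* had no peak in any line.

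Some of these peaks lay at the start sites of neighbours. Both MV+ peaks, 2 of the 8 RAG peaks and 3 of the 22 Beta-TC3 peaks lay within 1 kb of a start site of another gene (*Spc25*, *Dcp1b* or *Dcp1a*). This left 19 peaks at 6 members in Beta-TC3 cells, 0 in MV+ cells and 6 at 3 members in RAG cells. Of the 19, 17 had their summit in an intron, 1 in an exon and 1 outside the gene body.

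**Figure D1:**
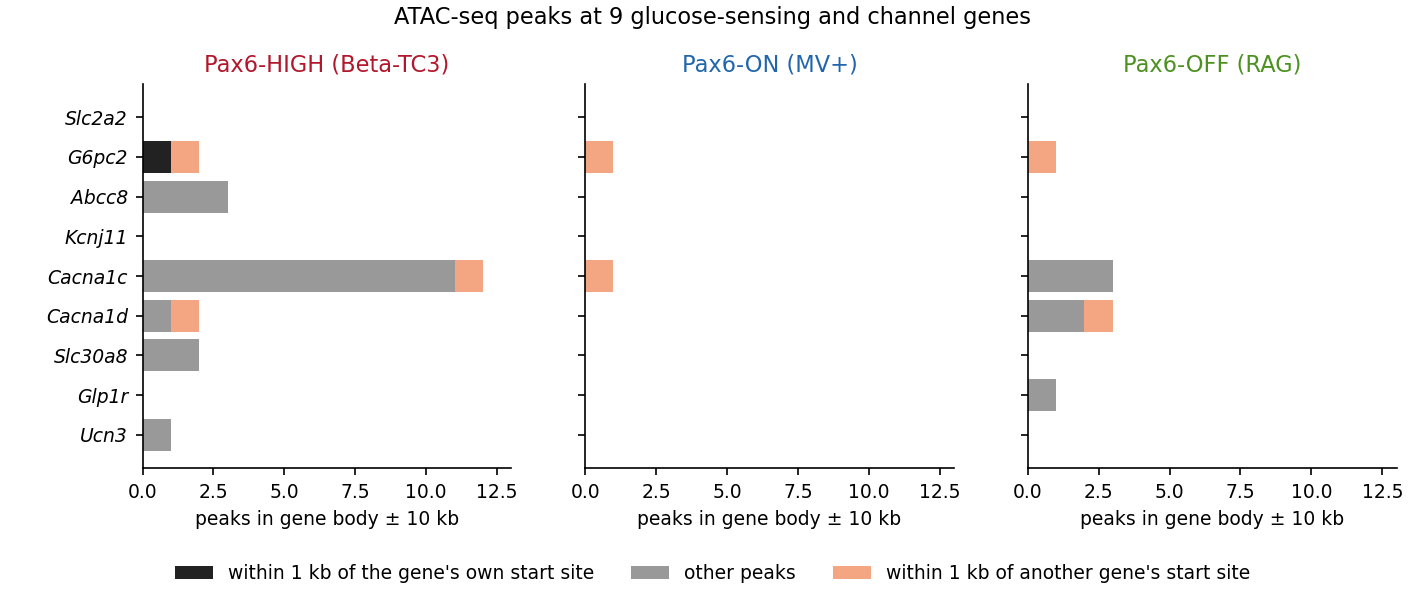
Number of ATAC-seq peaks (x axis) in the gene body and 10 kb on either side of each gene (y axis), with 1 panel per cell line and the colour of a bar segment giving the peak's class. Beta-TC3 cells had 22 peaks at 6 genes, of which 12 were at *Cacna1c*, and the 2 MV+ peaks were both at start sites of other genes.

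Peaks that overlapped between lines were merged into 27 sites. More than 1 line had a peak at 4 of the 27. Of those 4, 3 were start sites of other genes: *Spc25* in all 3 lines, *Dcp1b* in Beta-TC3 and MV+ cells, and *Dcp1a* in Beta-TC3 and RAG cells. Of the 24 sites that were not at another gene's start, 23 were called in a single line, 18 in Beta-TC3 and 5 in RAG cells. The exception was an intronic *Cacna1c* site shared by Beta-TC3 and RAG cells. The share of single-line sites over all peaks of the lines is not given here, so no trait of the members is read from these numbers. These counts depended on how many peaks each line had: with the best 9821 peaks of each line, 9 Beta-TC3 peaks at 3 members were left, with 2 MV+ and 7 RAG peaks, and 6 sites were called in Beta-TC3 cells alone.

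Start sites were the place where the members stood lowest against all genes. In Beta-TC3 cells 1 of the 9 members, *G6pc2*, had a start-site peak, beside 46.4% of all genes. No member had one in MV+ cells (21.4% of all genes) or in RAG cells (36.1% of all genes). The *G6pc2* peak was called in Beta-TC3 cells alone, a pattern that 11.1% of all genes shared. Counting peaks within 2.5 kb added *Cacna1d* in Beta-TC3 cells, and counting only the outermost start site of each gene left 0 members.

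CpG content was set beside this result. Start sites rich in CpG dinucleotides are accessible in most tissues, and a gene was called CpG-rich where the observed count was at least 0.6 of that expected from base composition within 500 bases of its outermost start site. By this measure 8 members were CpG-poor and 1, *Abcc8* (0.780), was CpG-rich, while 12162 of all genes were poor and 10205 rich. *Kcnj11* (0.581) and *Glp1r* (0.517) lay just under the limit, and the other members ranged from 0.177 in *Slc2a2* to 0.377 in *Cacna1d*. Among CpG-poor genes 19.9% had a start-site peak in Beta-TC3, 8.16% in MV+ and 12.3% in RAG cells, against 1, 0 and 0 of the 8 CpG-poor members. Among CpG-rich genes the shares were 78.1%, 37.2% and 64.4%, and *Abcc8* had no start-site peak in any line. The part of CpG content in the members' low count was not tested.

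**Figure D2:**
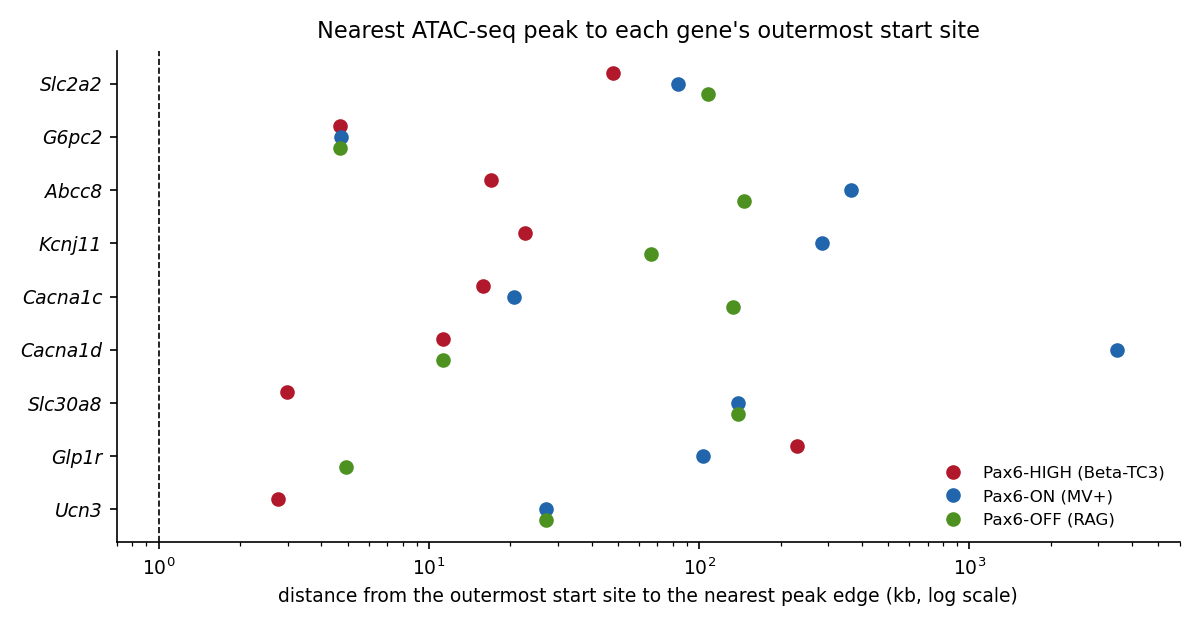
Distance in kb, on a log scale, from the outermost annotated start site of each gene to the edge of the nearest peak in each line, with the dashed line at 1 kb. No point reaches the line, since the *G6pc2* start-site peak is at internal start sites, and the nearest is 2.75 kb away at *Ucn3* in Beta-TC3 cells.

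*Slc2a2*, the glucose transporter (chr3:28596825-28627278, + strand), was among the emptiest of the members. The nearest peak lay 48.1 kb from its outermost start site in Beta-TC3, 83.3 kb in MV+ and 107 kb in RAG cells. None of these falls in its window.

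*G6pc2*, which encodes the islet form of glucose-6-phosphatase and so opposes glucokinase, lies at chr2:69049130-69065898 on the + strand and has 4 annotated start sites. Its own peak, at chr2:69057675-69058090, was called in Beta-TC3 cells with a pileup of 78 fragments (interval 61.7 to 97.3) and 6.18-fold enrichment over local background. The peak overlapped 3 of the 4 start sites and the first exon and 5′ untranslated region that begin there, but was 8.76 kb from the outermost start. It ranked at 70.8% of all Beta-TC3 peaks by pileup, at 86.9% by fold enrichment, and at 51.5% among start-site peaks alone. With the best 9821 peaks of each line its pileup rank was 21.0%. Neither of the other lines had a peak at this site.

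Upstream of *G6pc2*, the shared start site of *Spc25*, a kinetochore gene, gave a reference point in the same window. Its pileup was 131 fragments in Beta-TC3 (rank 89.7%), 93 in MV+ (79.9%) and 63 in RAG cells (68.2%). It was called in all 3 lines, 4.7 kb from the outermost *G6pc2* start, while the *G6pc2* peak itself was called in 1. A start site in this window was thus called in each line.

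*Abcc8*, the sulphonylurea receptor subunit (chr7:53359893-53435403, − strand), had 3 peaks in Beta-TC3 cells and none in the other lines. The strongest, at chr7:53378244-53378976, had 132 fragments (110 to 157) and 7.54-fold enrichment. It was the highest of all member peaks outside the start sites of other genes, and ranked at 89.8% of all Beta-TC3 peaks, 94.8% of the peaks away from start sites and 96.6% by fold enrichment. Its summit lay in an intron 56.9 kb downstream of the start site, and its edge reached an exon that is coding in 1 transcript and untranslated in another.

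The other *Abcc8* peaks were weaker. That at chr7:53417768-53418399, in an intron 17.2 kb downstream of the start, had 59 fragments (44.9 to 76.1; rank 55.8%), and its summit held a FOXA motif. That at chr7:53386750-53386978, 48.6 kb downstream, had 34 fragments (23.5 to 47.5; rank 14.1%) and held an AP-1 motif. No peak lay within 17.0 kb of the *Abcc8* start site in Beta-TC3 cells, and the distances in MV+ and RAG cells were 365 and 146 kb.

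*Kcnj11*, the pore subunit, is a short gene (chr7:53352533-53355607, − strand) next to *Abcc8*. It had no peak in its window, and its nearest Beta-TC3 peak, 22.6 kb away, was the strong *Abcc8* intronic peak. The nearest in MV+ and RAG cells were 286 and 66.4 kb away. Both subunits of the potassium channel therefore lacked a start-site peak in the insulinoma line, while its regulatory subunit held intronic peaks there.

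*Cacna1c*, the pore of the Cav1.2 calcium channel (chr6:118542314-119146249, − strand), held 12 of the 22 Beta-TC3 peaks, 11 of them outside the start site of *Dcp1b*. The pileups of the 11 ran from 34 to 108 with a median of 77, and their ranks from 14.1% to 84.0% with a median of 70.1%. With the best 9821 peaks of each line the rank of the strongest was 55.4%. Of the 11, 10 had their summit in an intron, and that at chr6:119007175-119007474 had its summit in an annotated exon. By fold enrichment they were ordinary, from 2.74 to 5.83 with a median rank of 52.9%. The background MACS2 estimated around them was high, at a median of 17.4 fragments beside a median of 12.4 for all Beta-TC3 peaks. The genome-wide value, 11.8, is the lowest that any peak of the line had.

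Chromosome 6 as a whole stood apart in Beta-TC3 cells. It carried 4166 peaks, or 2.79 per 100 kb beside 1.05 in the genome, and the median local background of its peaks was 15.6 fragments beside 12.4 for all peaks. Only 14.7% of its peaks had the genome-wide background value, beside 45.2% of all peaks. The *Cacna1c* window held 1.92 peaks per 100 kb, fewer than its chromosome. The part of this chromosome's peak number and background in the *Cacna1c* count was not tested.

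Within *Cacna1c* the Beta-TC3 peaks were searched for the span of up to 60 kb that held the most. It held 6 of the 11, within 51.7 kb, from 87.1 to 139 kb downstream of the outermost start site. These had pileups of 108, 77, 74, 99, 87 and 85 fragments in the order of transcription. How many peaks the densest such span of other genes holds is not given here. The strongest of them, at chr6:119058423-119059446, had 108 fragments (88.6 to 130) and 3.93-fold enrichment. Although no GENCODE start site lay there, it covered a RefSeq start at position 119058513, with its summit 600 bases upstream. By RefSeq *Cacna1c* too thus had a start-site peak in Beta-TC3 cells, while its other placed RefSeq starts were 15972 and 33958 bases from the nearest peak. This comparison with RefSeq was chosen after the data were seen.

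In RAG cells *Cacna1c* had 3 peaks, of 64, 37 and 56 fragments (ranks 69.1%, 20.8% and 59.3%), all in introns 404 to 464 kb from the outermost start. Their summits were 19.3, 7.46 and 11.8 kb from the nearest annotated start of the gene. That of 56 overlapped a Beta-TC3 peak of 71 fragments (rank 66.1%), and together they span chr6:118741950-118742391. It was the only site in the 9 windows, other than start sites of other genes, that was called in more than 1 line. In MV+ cells the sole *Cacna1c* peak was that of *Dcp1b*, which encodes an mRNA decapping factor and has its start site within the *Cacna1c* gene. The *Dcp1b* peak had 130 fragments in Beta-TC3 (rank 89.5%) and 49 in MV+ cells (28.7%) and was not called in RAG cells. The sequence around the Beta-TC3 summit of the shared intronic site, at chr6:118742124-118742324, is shown because of that sharing, which was seen first. This stretch held none of the motifs, and the RAG summit, at position 118742103, lies just outside it.
Cacna1c shared site: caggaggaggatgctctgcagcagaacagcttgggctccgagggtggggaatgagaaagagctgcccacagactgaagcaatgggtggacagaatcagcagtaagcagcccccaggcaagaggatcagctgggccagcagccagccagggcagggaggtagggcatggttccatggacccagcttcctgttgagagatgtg

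*Cacna1d*, the pore of the Cav1.3 channel (chr14:30853135-31304342, − strand), is also a long gene but held fewer peaks. Outside the start site of *Dcp1a*, a paralog of *Dcp1b*, it had 1 Beta-TC3 peak and 2 RAG peaks. The Beta-TC3 peak was the weakest of all member peaks, with 30 fragments (20.2 to 42.8), 2.42-fold enrichment and a rank of 5.64%. It ended 1119 bases from an internal start site at position 31166672, just outside the 1 kb limit.

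The RAG peaks of *Cacna1d* had 43 and 76 fragments (ranks 35.4% and 78.9%) and lay 354 and 273 kb into the gene. The *Dcp1a* start site, unlike that of *Dcp1b*, was called in RAG and not in MV+ cells, with 107 fragments in RAG (rank 91.5%) and 57 in Beta-TC3 cells (53.6%). In MV+ cells the nearest peak to either *Cacna1d* start site was 3382738 bases away. Long genes usually held a peak, since 84.0% of the 250 genes at least as long as *Cacna1d* had a window peak in Beta-TC3, 66.0% in MV+ and 59.6% in RAG cells.

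**Figure D3:**
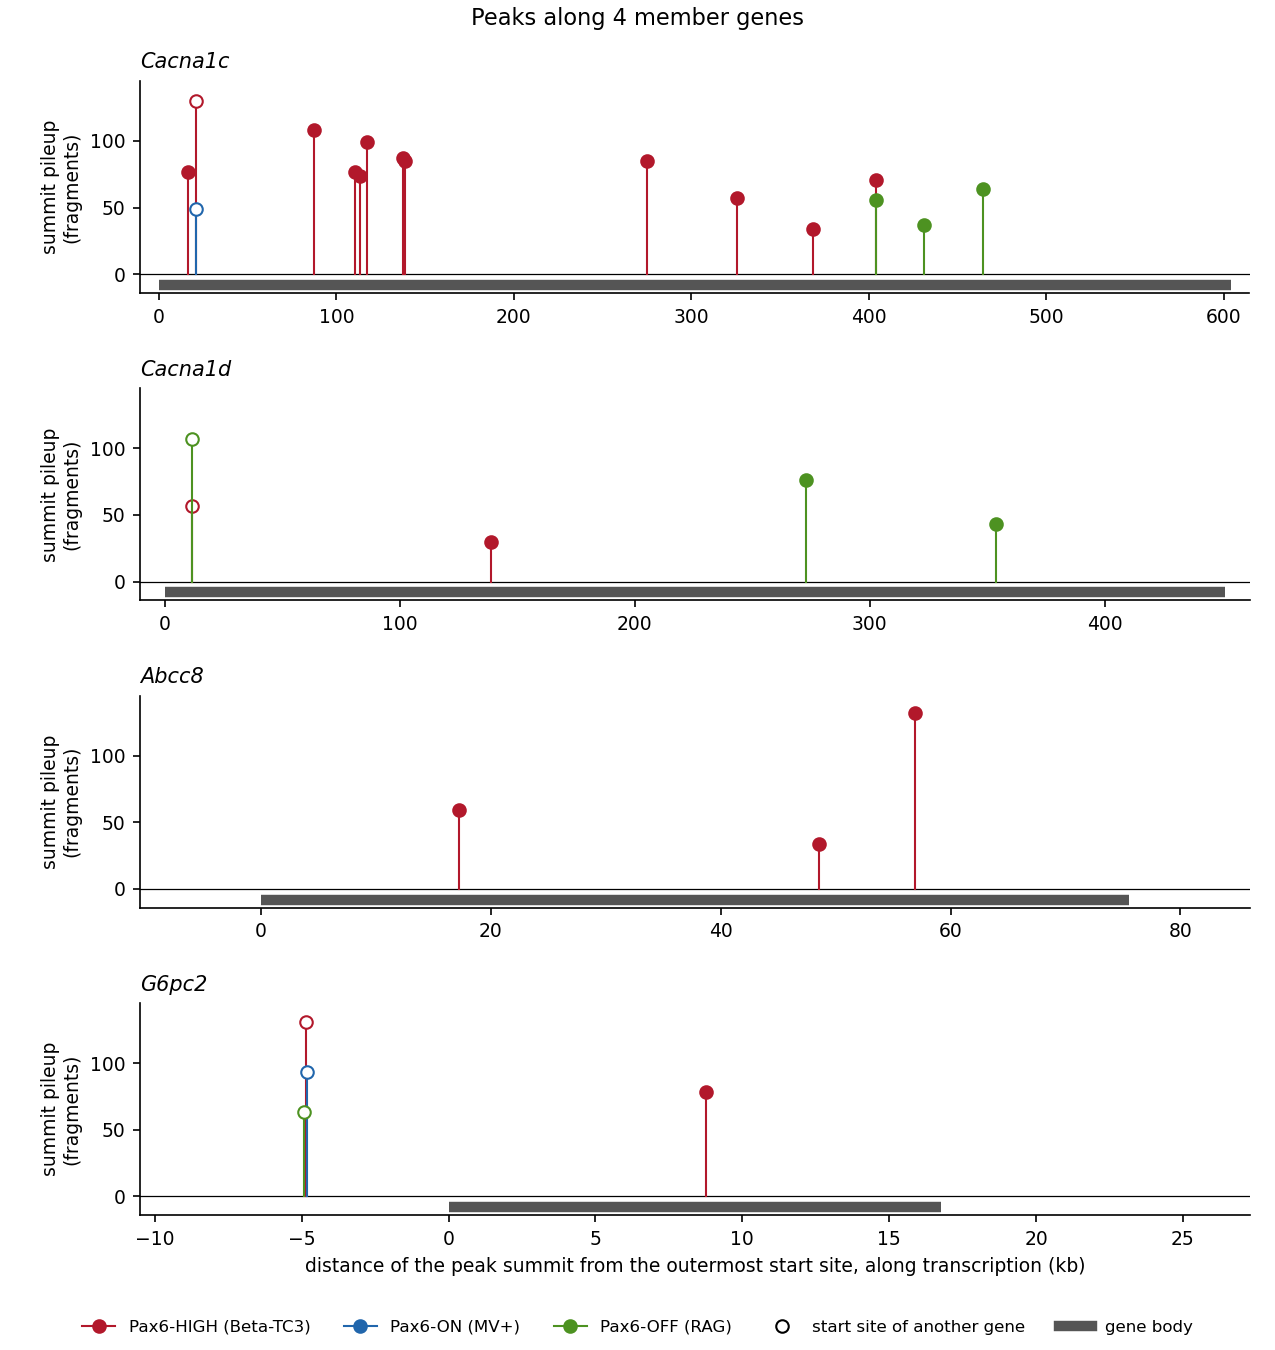
Position of each peak summit (x axis, kb from the outermost start site in the direction of transcription) and its pileup in fragments (y axis, not scaled for depth) at *Cacna1c*, *Cacna1d*, *Abcc8* and *G6pc2*. The 6 Beta-TC3 peaks in the densest stretch of *Cacna1c* lie between 87.1 and 139 kb, and the highest *Abcc8* peak (132 fragments) lies 56.9 kb into the gene. Open circles mark start sites of other genes.

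*Slc30a8*, the zinc transporter of insulin granules (chr15:52127108-52167353, + strand), had 2 weak peaks in Beta-TC3 cells and none in the others. The peak at chr15:52130099-52131122 had 36 fragments (25.2 to 49.8; rank 18.6%) with its summit 3.29 kb into the gene, in an intron. That at chr15:52172903-52173506 had 43 fragments (31.1 to 57.9; rank 33.5%) and its summit lay 5940 bases beyond the end of the gene. Both ranked below the median Beta-TC3 peak. The nearest peak to the start site was 139 kb away in MV+ and in RAG cells.

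*Ucn3*, a peptide of the corticotropin-releasing hormone family that marks mature beta cells in mice (chr13:3939934-3944595, − strand), had 1 intronic peak in Beta-TC3 cells. At chr13:3941591-3941842 it had 34 fragments (23.5 to 47.5), 2.74-fold enrichment and a rank of 14.1%, 2.98 kb from the start site. The nearest peaks in MV+ and RAG cells were 27.2 and 27.1 kb from that start.

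*Glp1r*, the receptor for the incretin GLP-1 (chr17:31038785-31073455, + strand), went the other way. It had no window peak in Beta-TC3 or MV+ cells, where the nearest were 229 and 103 kb from the start, and 1 peak in RAG cells. At chr17:31033017-31033845, with its summit 5227 bases upstream, the peak had 100 fragments (81.4 to 122) and a pileup rank of 89.7%. Its local background was the highest among the RAG member peaks, 27.9 fragments beside 10.9 genome-wide, so that its enrichment was 3.50-fold and its rank by enrichment 40.0%. The sequence at its summit, chr17:31033458-31033658, was looked at after these values were seen.
Glp1r in RAG: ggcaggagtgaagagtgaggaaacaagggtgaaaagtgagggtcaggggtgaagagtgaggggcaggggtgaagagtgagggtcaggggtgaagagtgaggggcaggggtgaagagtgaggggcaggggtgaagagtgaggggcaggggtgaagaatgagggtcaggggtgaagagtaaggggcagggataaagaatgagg
It is a tandem repeat with no CpG: moved along itself by 40 bases, 84.5% of its letters agreed, beside 30.6% to 35.6% at the best shift of the other member sequences, over shifts up to 60 bases. The part of the repeat and of the high background in this pileup was not tested.

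**Figure D4:**
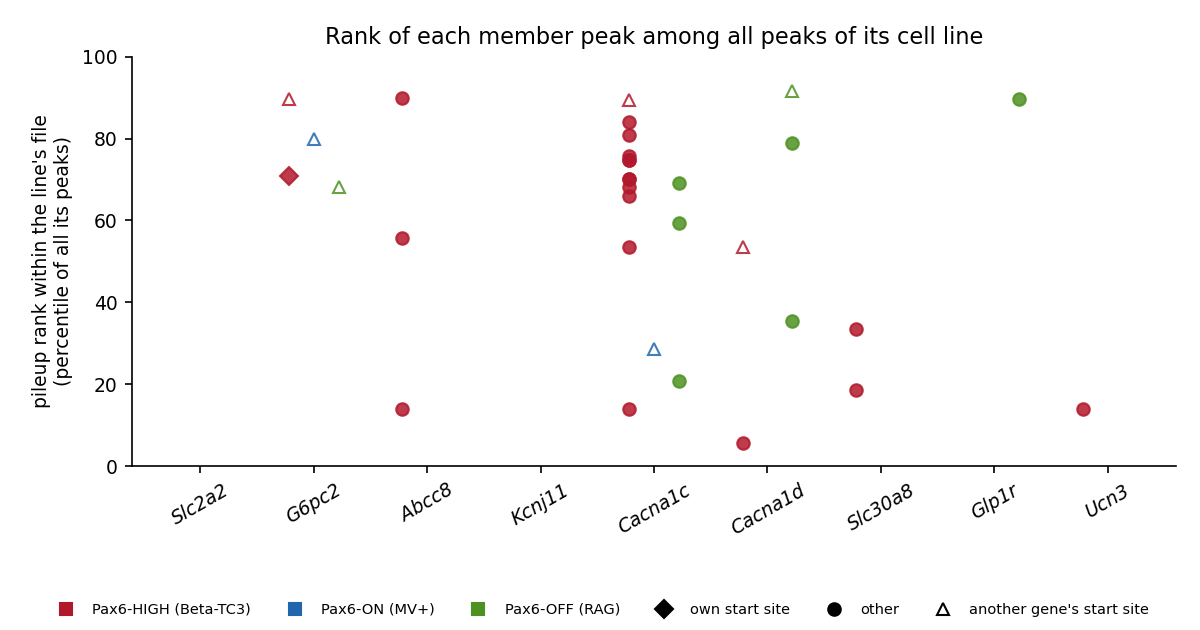
Rank by pileup of each member peak (y axis, percentile among all peaks of its own line) for each gene (x axis), coloured by line and shaped by class, with open triangles for start sites of other genes. The *Slc30a8*, *Ucn3* and *Cacna1d* peaks of Beta-TC3 cells lie at 33.5% or lower apart from the *Dcp1a* start, while the highest *Abcc8* peak is at 89.8%.

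Peak density gave the same picture per length. The windows covered 1425 kb and held 1.54 peaks per 100 kb in Beta-TC3, 0.140 in MV+ and 0.561 in RAG cells, beside 1.05, 0.364 and 0.521 for the whole genome. At the densities of their own chromosomes the windows would hold 22.7, 5.16 and 6.88 peaks, where 22, 2 and 8 were found. The large Beta-TC3 count was thus close to that of the chromosomes, and *Cacna1c* made up most of it.

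Without *Cacna1c* the comparison changed. The other 8 windows held 10 Beta-TC3 peaks where their chromosomes would give 5.34, and 1 MV+ and 5 RAG peaks where these would give 2.45 and 4.07. Without both calcium channel genes, the 7 shorter genes held 8 Beta-TC3 peaks (2.43 per 100 kb), where their chromosomes would give 3.27 peaks. In Beta-TC3 cells *G6pc2* had 5.44 peaks per 100 kb (1.01 on chromosome 2), *Ucn3* 4.05 (1.14 on chromosome 13), *Slc30a8* 3.32 (0.941 on chromosome 15) and *Abcc8* 3.14 (0.938 on chromosome 7). Of the 2 *G6pc2* peaks, 1 was the *Spc25* start site. *Cacna1d*, at 0.424, was near its chromosome 14 (0.439), and *Slc2a2*, *Kcnj11* and *Glp1r* had 0. With the best 9821 peaks of each line 3 of the 8 peaks of the shorter genes were left, 1 at *Abcc8* and 2 at *G6pc2*, and none at *Ucn3* or *Slc30a8*. Peaks are denser in genes than between them, and these few peaks carry no test.

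**Figure D5:**
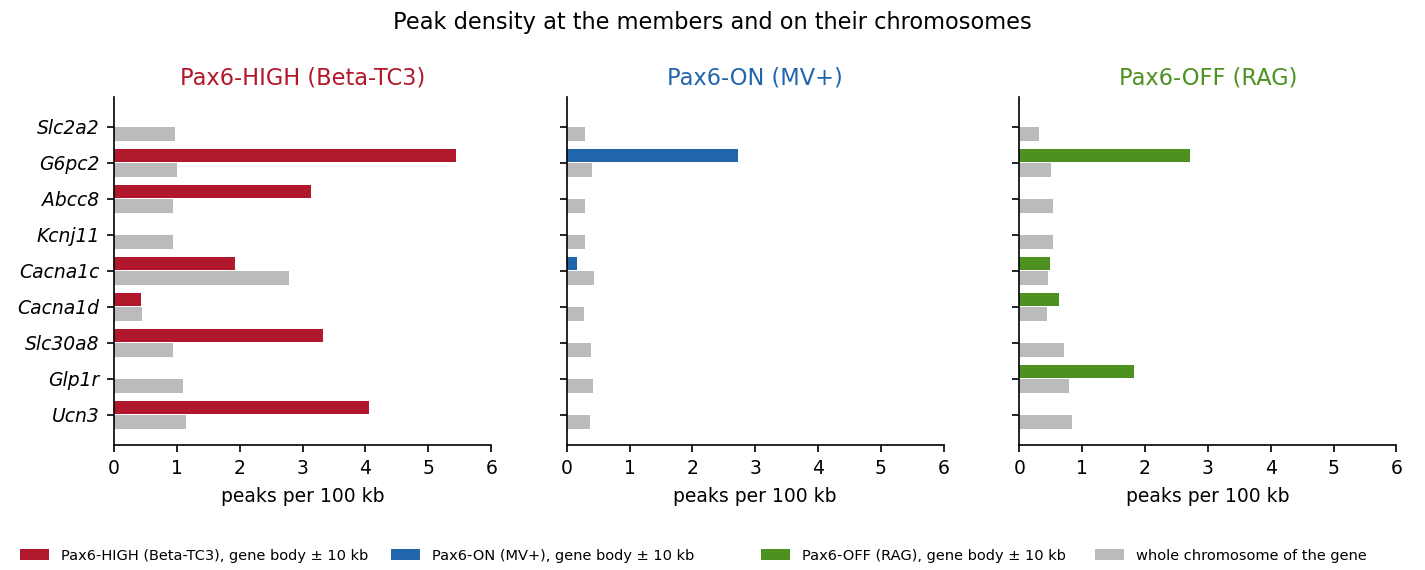
Peaks per 100 kb (x axis) in each gene's window (coloured bars) and on the whole chromosome that holds it (grey bars), with 1 panel per line and all 3 classes of peak counted. In Beta-TC3 cells *G6pc2*, *Ucn3*, *Slc30a8* and *Abcc8* lie above their chromosomes, from 3.14 to 5.44, while *Cacna1c* (1.92) lies below chromosome 6 (2.79) and *Slc2a2*, *Kcnj11* and *Glp1r* are at 0.

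The motifs reported at the summits of member peaks are the NeuroD E-box CAGATGG, the MAF motif TGCTGAC, FOXA (TGTTTAC), the RFX motif GTTGCNA, AP-1 (TGANTCA), the cAMP response element TGACGTCA and a PAX6 paired-domain string CACGCNTGA, each on both strands. The NeuroD E-box, the site of a factor that activates the insulin gene, was in 5 of the 19 Beta-TC3 member peaks, 4 at *Cacna1c* and 1 at *G6pc2*. It was in 6.91% of all Beta-TC3 peaks and 9.43% of those away from start sites. The MAF motif was in 2 member peaks, at *G6pc2* and *Slc30a8*, and in 7.26% of all peaks and 9.72% of those away from start sites. FOXA (4.70% of all peaks) and AP-1 (9.56%) were each in 1 peak, both at *Abcc8*, and the RFX motif (6.99%) was in 1 at *Cacna1c*. The letters of the cAMP response element and of the PAX6 string were in none of the stretches searched around these 19 summits. They were in 1.6% and 0.320% of all Beta-TC3 peaks. In RAG cells AP-1 was in 2 of the 6 member peaks, both at *Cacna1c*, beside 12.0% of all peaks and 21.9% of those away from start sites, and no other motif was found there.

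The wider pathway was read from 50 further genes, all found in the annotation. Start-site peaks were at 13 of the 50 in Beta-TC3, 8 in MV+ and 10 in RAG cells, and window peaks at 37, 16 and 21. Over all genes the shares were 46.4%, 21.4% and 36.1% for start sites and 61.6%, 30.6% and 48.9% for windows, and no difference from them was tested. At 34 of the 50 no line had a start-site peak. Of the other 16, 5 had one in all 3 lines, and 3 in Beta-TC3, 2 in MV+ and 1 in RAG cells alone. A start-site peak in Beta-TC3 cells alone was found at 11.1% of all genes, and the shares of the other patterns are not given here.

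The 5 genes with start-site peaks in all 3 lines were *Slc2a1*, the widespread glucose transporter, the zinc transporters *Slc30a1*, *Slc30a5* and *Slc30a7*, and *Pcx*, which makes oxaloacetate from pyruvate. *Slc2a1* had 72, 77 and 61 fragments in Beta-TC3, MV+ and RAG cells (ranks 66.9%, 69.1% and 65.8%). *Slc30a5* had 179, 76 and 132 fragments (95.3%, 68.2% and 95.7%). The members *Slc2a2* and *Slc30a8*, a further glucose transporter and a further zinc transporter, had no start-site peak in any line.

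The 3 genes called at the start in Beta-TC3 cells alone were *Slc2a3* (73 fragments, rank 67.6%), a neuronal glucose transporter, *Abcc9* (37, 20.9%), the paralog of *Abcc8* in heart and vascular muscle, and *Cacnb4* (119, 87.1%), a calcium channel beta subunit. *Slc2a3* and *Abcc9*, like *Cacna1c*, are on chromosome 6. In MV+ cells alone were *Hk2* (64, 54.7%), a hexokinase of muscle and of dividing cells, and *Adra2a* (46, 22.2%), the adrenergic receptor that inhibits insulin release. In RAG cells alone was *Cacna1g* (45, 40.1%), a T-type calcium channel pore.

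Among calcium channel subunits, 4 of 12 had a start-site peak in Beta-TC3, 1 in MV+ and 3 in RAG cells. None of the 5 other potassium channels had one in any line, nor did the 3 further genes of the corticotropin-releasing hormone family. Of the 9 islet receptors 1, *Adra2a* in MV+ cells, had one, although 6 had a window peak in Beta-TC3, 1 in MV+ and 2 in RAG cells.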

How the data were processed

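ATAC-seq was performed on 6 libraries, 2 for each of the 3 cell lines, with 50000 nuclei, 11 cycles of amplification and 75 bp read pairs. Per the labels, the authors used Trim Galore 0.4.1, Bowtie2 2.2.6 (mm9), SAMtools 1.6, bedtools and MACS2 2.1.1. The header of each deposited table gives a q-value cut of 0.05, no control, all duplicates kept and a regional background window of 6250 bp. The deposited pileup is a signal, the fragments at the summit, not scaled for depth. Fold enrichment, as deposited, divides the pileup by the background around it (each plus 1), a ratio within the line. The deposited −log10 q-values set the alternatives on stricter calls. Whole fragments were piled up, with no shift to the Tn5 cut sites, which can widen peaks.

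Peaks were placed on NCBIM37 (the assembly of mm9) with the GENCODE M1 annotation. Overlap was at least 1 bp. Work was done in Python 3.11.15 with pandas 2.3.3, NumPy 2.4.6, SciPy 1.17.1 and matplotlib 3.10.9. The counting was tested on simulated data, where 100% of counts were recovered in 50 sets of 9 genes. Background was derived from pileup and fold. Shares of peaks with a motif were taken over the summits, with 100 bases on either side, of peaks on assembled chromosomes, and peaks away from start sites are those over 1 kb from any start.

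The members and lists were chosen with earlier results of these data known. By rule, the text names all 9 members with their start-site peaks and strongest other peaks, other genes with a peak at their start in a window, and list genes with a start-site peak in 1 line or in all 3. For the lists, start-site peaks were counted from all annotated transcripts. Sequences shown as chosen later fall outside the rule, and that of the site shared by all 3 lines, over an exon of *Spc25*, was left out. RefSeq starts (from GRCm38 promoters found unchanged in mm9) could be placed for 6 of the 9 members, not for *Abcc8*, *Kcnj11* and *Slc30a8*, and for 38 of the 50 list genes. Alternatives were a q-value cut of 0.001, 9821 peaks in each line, other flanks and start-site distances, the outermost start only, a 50% reciprocal overlap and RefSeq starts. A marker gene and a motif searched are not reported here.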

Additional observations from a re-analysis of the deposited data

How the results depend on the processing

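Both replicates were pooled in 1 call per line, and no replicate could be left out. No paired analysis was possible because the calls carry no replicate. Keeping the 9821 peaks with the best q-values in each line cut the Beta-TC3 peaks of the 9 windows from 22 to 9, with peaks at 3 of the 6 members (*Abcc8*, *Cacna1c* and *G6pc2*) and 0.632 per 100 kb. It left 6 sites called in Beta-TC3 cells alone, from 18, 1 shared by Beta-TC3 and RAG cells, from 2, and start-site peaks at 8 genes of the pathway list, from 13. Members with a start-site peak in Beta-TC3 cells went from 1 to 2 within 2.5 kb (adding *Cacna1d*), to 2 with RefSeq starts (adding *Cacna1c*, an alternative chosen after seeing the data) and to 0 with the outermost start alone. With the gene body alone, 1 MV+ peak at 1 member (0.0793 per 100 kb) was left, RAG peaks lay at 2 members, and 0 sites were shared by all 3 lines. With 50 kb flanks there were 4 MV+ and 13 RAG peaks and 3 sites in all 3 lines. In 96 other combinations of these summary values and settings, the value stayed within 1.5 times or was 0 under both settings. Among values of single genes, 25 moved by more and 107 did not, many of which were 0 under both settings. A q-value cut of 0.001 kept 26152, 9579 and 13474 peaks. Depth limits the report at the lowest called pileup, 25 to 30 fragments.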
